A study of Rattus norvegicus with 18 samples.

Results

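The 10 genes described here make and modify long-chain fatty acids: Acly, Acaca, Fasn, Elovl5, Elovl6, Tecr, Scd2, Scd, Fads1 and Fads2. They were taken by name from 17337 genes in transcript assemblies of rat oligodendrocyte progenitor cells (OPCs), the cells that divide and mature into the myelin-forming cells of the brain. The symbol of the files gave 9 of them, and Scd, which the files call Scd1, was found by its RefSeq accession. The study grew OPCs of aged and neonatal rats on soft and stiff hydrogels, so the comparisons ask how these genes differ with age, gel stiffness and culture.

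The 18 libraries fell into 6 groups of 3: aged OPCs on a soft gel, aged OPCs on a stiff gel, aged primary OPCs, neonate OPCs on a soft gel, neonate OPCs on a stiff gel and neonate primary OPCs. All cells were sorted with magnetic beads (MACS), and the gels were coated with laminin, with FGF and PDGF in the medium. The growth text is the same for every library, so the uncultured libraries are those whose labels call them primary. The age of the primary libraries comes only from the letter of their title, A or N. The name inside each file has the letters of its title in all 18 libraries but another number in 12, so replicate numbers are those of the titles. The labels give no ages in days or months, no strain, sex or stiffness value, and do not say whether replicates came from separate animals. The p-values therefore hold for the variation among these libraries only, part of which can be technical.

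Fatty acid synthesis starts when Acly splits citrate into acetyl-CoA in the cytosol, Acaca carboxylates acetyl-CoA to malonyl-CoA and Fasn builds palmitate from both. Elovl5 adds carbons to polyunsaturated chains and Elovl6 to saturated ones, and Tecr performs the last reduction of each elongation cycle. The stearoyl-CoA desaturases Scd2 and Scd place the first double bond into saturated chains, while Fads1 and Fads2 desaturate polyunsaturated ones. In the oligodendrocyte lineage these enzymes supply the lipids of the myelin membrane, and Scd2 is the stearoyl-CoA desaturase isoform best known from the brain in mouse.

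On rn6, the build of the files, Scd2 (NM_031841) lies at chr1:264059374-264072433 on the plus strand, and Scd (NM_139192) lies at chr1:264160129-264172729 on the minus strand. Fads1 lies at chr1:226234113-226249116 and Fads2 at chr1:225906797-226152568. Fasn lies at chr10:109987735-110005901, Acly at chr10:88392248-88442845, Acaca at chr10:71519392-71719910, Tecr at chr19:24705479-24732024 and Elovl5 at chr8:85259988-85285785. Elovl6 is annotated at 2 loci of chromosome 2, chr2:234187490-234296124 and chr2:234375315-234483145, with the same transcript accession, so its level is the sum of both and reads could be split between them. No exon of any of the 10 genes overlapped an exon of another gene in the files. Scd and Scd2 are close relatives, and how reads that match both were assigned is not given in the sources used here.

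RefSeq promoter windows of GRCr8, 250 bases before to 50 bases after a gene's start, were found for 7 of the 10 genes. Fasn, Acaca and Elovl6 had none. The windows of 4 are printed because Scd2, Fads1 and Acly varied together across the libraries while Scd, the relative of Scd2, was low in most of them. Capitals mark CCAAT and GGGCGG on either strand, so that ATTGG and CCGCCC are marked too.
Scd2, chr1:253118127-253118426, plus strand: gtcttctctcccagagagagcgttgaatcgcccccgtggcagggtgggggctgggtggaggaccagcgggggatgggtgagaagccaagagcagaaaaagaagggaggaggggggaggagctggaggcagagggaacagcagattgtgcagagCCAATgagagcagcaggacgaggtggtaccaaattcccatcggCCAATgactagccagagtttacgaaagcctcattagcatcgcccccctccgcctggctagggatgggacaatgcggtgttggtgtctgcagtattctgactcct
Scd, chr1:253231682-253231981, minus strand: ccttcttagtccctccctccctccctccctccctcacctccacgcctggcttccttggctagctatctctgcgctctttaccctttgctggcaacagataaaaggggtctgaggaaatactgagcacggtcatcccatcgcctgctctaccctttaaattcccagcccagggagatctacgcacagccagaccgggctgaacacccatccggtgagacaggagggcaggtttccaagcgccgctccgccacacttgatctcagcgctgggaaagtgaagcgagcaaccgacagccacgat
Fads1, chr1:216252442-216252741, plus strand: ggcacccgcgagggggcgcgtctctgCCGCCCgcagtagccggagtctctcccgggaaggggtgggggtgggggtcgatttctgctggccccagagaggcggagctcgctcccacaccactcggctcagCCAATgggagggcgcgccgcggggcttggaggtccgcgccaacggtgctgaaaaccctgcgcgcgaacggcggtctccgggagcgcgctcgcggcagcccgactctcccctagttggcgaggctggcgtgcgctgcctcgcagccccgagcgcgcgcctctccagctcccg
Acly, chr10:85963582-85963881, minus strand: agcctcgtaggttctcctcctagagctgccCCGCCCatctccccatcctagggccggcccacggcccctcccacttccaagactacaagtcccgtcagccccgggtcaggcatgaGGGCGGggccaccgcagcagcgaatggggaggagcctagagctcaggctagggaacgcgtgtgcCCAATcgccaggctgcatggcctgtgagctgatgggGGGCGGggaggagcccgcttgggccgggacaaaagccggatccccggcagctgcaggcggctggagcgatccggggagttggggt

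The Scd2 window held CCAAT, the letters bound by NF-Y, at positions -97 and -54 from the start. The Fads1 window held it at -121 and the Acly window at -71, while the Scd window held none of the motifs searched. The 7 genes have 9 windows, since Tecr has 3. CCAAT occurred in 6 of the 9 windows, against 37.5% of 33469 rat windows. Elovl5 and Tecr held it too, and their levels had a lower Pearson r with Scd2, 0.592 and 0.494. Scd, whose window lacked it, had an r of 0.652 with Scd2, above both. GGGCGG occurred in 5 of the 9, against 33.1% of all windows. CACGTG occurred in 1, that of Elovl5, against 6.42%, and the sterol element TCACNCCAC in 0, against 1.12%. These matches describe letters in the windows, and binding was not measured.

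Depth was low. Aligned sequence was 12.9 to 52.6 megabases per library, which gave 33939 to 141883 exonic read-pair equivalents, estimated from coverage. A single pair on a transcript of 2000 bases was worth 3.16 to 14.3 TPM, so a listed 0 is compatible with up to 3 pairs per library, a limit that covers counting error only. Replicate 1 of each aged group stood apart in the coverage of olfactory receptor genes, which OPCs are not known to use. These genes were covered for 77.2% in aged primary replicate 1, 66.9% on the soft gel and 54.7% on the stiff gel. The other 15 libraries had 0.251% to 39.1%. Aged soft replicates 2 and 3 were the highest of these, at 39.1% and 30.8%, whereas aged stiff replicates 2 and 3 had 16.1% and 1.34%. Leaving out replicate 1 of each aged group therefore does not make the aged gel groups alike in this coverage. Ribosomal RNA genes took 12.5% to 62.2% of the TPM, and this share differed by group. It was 49.5% to 62.2% in neonate cells on the soft gel and 50.8% to 59.2% on the stiff gel. Neonate primary cells had 24.3% to 35.6% and aged primary cells 28.8% to 46.6%. Aged cells had 37.4% to 59.0% on the soft gel and 12.5% to 33.3% on the stiff gel. Without scaling, TPM of every other gene is a share of a total that includes these genes. The summed level of 13 OPC markers was 350.3 to 692 scaled TPM in aged cells on the soft gel, 79.4 to 523 on the stiff gel and 115 to 234 in aged primary cells, against 1432 to 1830, 1198 to 1983 and 892 to 1111 in the neonate groups on the soft gel, on the stiff gel and primary. Microglia markers, 14 genes, summed to 572 to 984, 322 to 737 and 2866 to 4718 in the same 3 aged groups, against 48.9 to 122, 34.4 to 59.0 and 129 to 288 in the neonate ones. Both lists were thus at another level in aged than in neonate libraries. In aged primary libraries, named OPCs here, microglia markers summed to 2866 to 4718 and OPC markers to 115 to 234. In bulk RNA fewer OPCs, less RNA per OPC and more RNA of other cells cannot be told apart.

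Levels below are scaled TPM, which is TPM divided by 1 factor per library, and are per transcript length, so genes can be compared. Over the 18 libraries Scd2 had the highest mean of the 10 genes, 154 scaled TPM, ahead of Elovl5 at 77.2 and Acly at 74.2. Tecr averaged 50.2, Fasn 30.5, Fads2 23.6, Fads1 18.8, Elovl6 12.6, Acaca 9.32 and Scd 6.97. This order is not that of each group: Elovl5 averaged 94.9 and Scd2 64.9 in aged cells on the soft gel, and in aged primary cells Elovl5 averaged 63.6, Tecr 50.6 and Scd2 49.3. Scd2, Acly and Fasn were above 0 in all 18 libraries, whereas Elovl6 was listed at 0 in 9 and Scd in 6. The 10 genes summed to 333 ± 29.2 scaled TPM in aged cells on the soft gel, 149 ± 88.6 on the stiff gel and 239 ± 55.1 in aged primary cells (SD, n = 3 each). The sums were 867 ± 81.3 in neonate cells on the soft gel, 795 ± 127 on the stiff gel and 360 ± 94.5 in neonate primary cells (SD, n = 3 each).

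**Figure D1:**
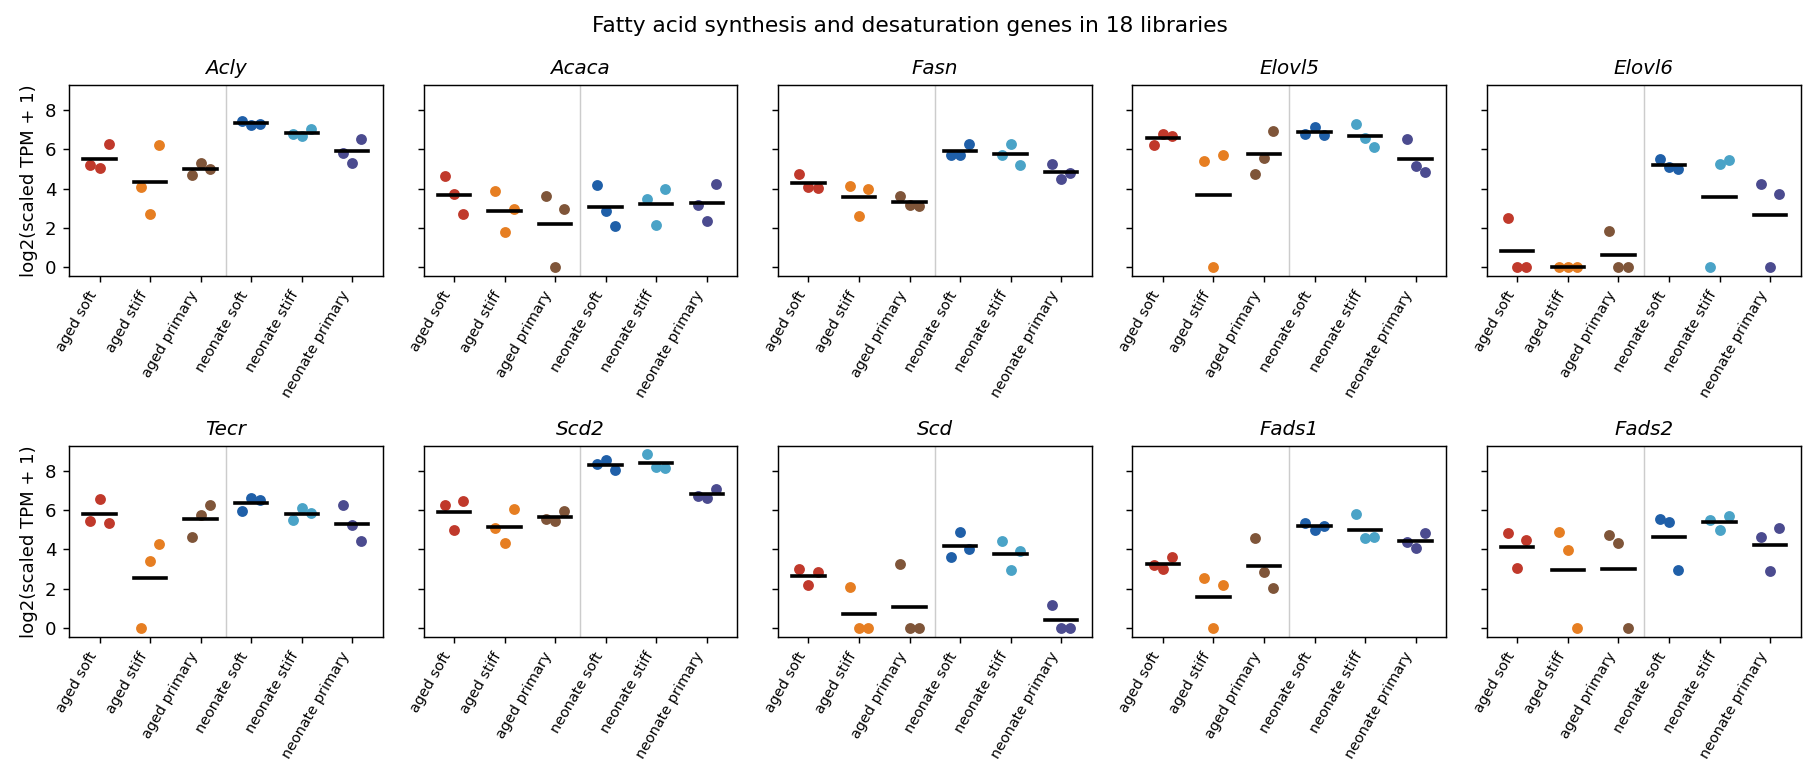
Each point is 1 library and each black line the mean of 3, on the axis log2(scaled TPM + 1), for the 10 genes in the 6 groups. Scd2 lies at 19.3 to 87.5 scaled TPM in the 9 aged libraries and at 95.9 to 454 in the 9 neonate ones, and the points on the bottom line are libraries listed at 0.

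Between aged and neonate cells on the stiff gel, Scd2, Fads1 and Tecr fell and none of the 10 genes rose. Scd2 had 33.4, 19.3 and 64.4 scaled TPM in aged cells on the stiff gel, against 454, 290.3 and 278 in neonate cells on it. Every aged library lay far below every neonate one. Scd2 thus averaged 39.1 ± 23.1 in aged and 341 ± 98.1 in neonate cells (SD, n = 3 each), 0.115 of the neonate mean, with a log2 difference of -3.22 (95% interval -4.33 to -2.11, limma adjusted p = 0.000732). It was called in each of the 6 fits that left out 1 of these libraries, with adjusted p of 0.000276 to 0.00860. It was not called with no scaling (adjusted p = 0.0557) or when these 2 groups alone were fitted (0.143).

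Fads1, the desaturase that forms arachidonic acid, had 4.89, 0 and 3.51 scaled TPM in aged cells on the stiff gel, against 54.5, 23.1 and 23.95 in neonate cells. The groups did not overlap, but the aged values rest on 2.06 read pairs in all against 29.3 pairs in neonate cells. The log2 difference of Fads1 was -3.43 (95% interval -5.16 to -1.70, limma adjusted p = 0.0245). The ratio of pairs per depth was 0.0869 (exact 95% interval 0.0100 to 0.343, counting error only). In limma its call was lost without aged replicate 2 (adjusted p = 0.136) and without neonate replicates 1, 2 or 3 (0.146, 0.0605 and 0.0600). It was also lost with a pseudocount of 0.1 (0.0536), with no scaling (0.165) and when these 2 groups alone were fitted (0.384).

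Tecr, the trans-2-enoyl-CoA reductase, had 0, 9.50 and 18.4 scaled TPM in aged cells on the stiff gel, against 43.8, 66.8 and 57.3 in neonate cells. These values rest on 2.33 pairs in aged and 15.9 pairs in neonate cells, a ratio of 0.157 per depth (exact 95% interval 0.0176 to 0.670, counting error only). The log2 difference of Tecr was -3.25 (95% interval -4.95 to -1.56, limma adjusted p = 0.0298). In limma the call was lost without aged replicate 1, the library listed at 0 (log2 difference -1.96, adjusted p = 0.166), and without neonate replicates 1, 2 or 3 (adjusted p of 0.0667, 0.117 and 0.0918). It held in 3 of the 9 other settings tried, and the remaining 6 gave adjusted p of up to 0.578.

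The share of genes called on the stiff gel was 2.18% of 15144, and 1.05% were called lower in aged cells, beside 3 of these 10 genes. No other member passed the test there. Acly came nearest, with 15.7, 5.64 and 74.0 scaled TPM in aged and 108, 100.4 and 129 in neonate cells. Aged replicate 3 lay far above the other aged libraries for Acly, and the limma adjusted p was 0.0543 for a log2 difference of -2.48. Without that library the difference of Acly was -3.43 (adjusted p = 0.00204), without aged replicate 2 it was -1.64 (0.298), and with a replicate block Acly passed (0.0377). Fasn had 16.6, 5.08 and 14.7 scaled TPM in aged and 51.5, 75.9 and 36.4 in neonate cells (log2 difference -2.16, limma adjusted p = 0.0991). Elovl5 had 40.7, 0 and 51.6 in aged and 155, 93.3 and 69.0 in neonate cells (log2 difference -2.96, limma adjusted p = 0.117). Leaving out 1 library moved Elovl5 either way: its log2 difference was -1.07 (adjusted p = 0.522) without aged replicate 2, the library at 0, and -3.80 and -3.98 (0.0475 and 0.0204) without aged replicates 1 and 3.

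Scd had 3.32, 0 and 0 scaled TPM in aged cells on the stiff gel, against 20.4, 6.73 and 13.9 in neonate cells. Elovl6 was listed at 0 in all 3 aged libraries there, against 0, 37.5 and 43.1 in neonate cells. Set against a floor of 3 pairs over the aged group, Elovl6 was at least 4.17-fold lower in pooled pairs per depth. That bound covers counting error only, not the spread of libraries, and neonate replicate 1 was at 0 too. Its log2 difference was -3.58 (limma adjusted p = 0.218), -5.41 (0.0307) without that neonate library, and -2.66 to -3.59 (0.186 to 0.577) in the other 5 fits that left out a library. Acaca, the enzyme whose product Fasn uses, showed no such gap: it had 2.48 to 13.7 scaled TPM in aged and 3.53 to 15.0 in neonate cells, and the 95% interval of its log2 difference ran from -2.46 to 1.78. Fads2 had 28.3, 14.8 and 0 in aged and 43.7, 30.5 and 50.3 in neonate cells (log2 difference -2.43, limma adjusted p = 0.357). In all, 8 of the 10 genes were lower in every aged than in every neonate library on the stiff gel, as were 4.79% of all genes tested.

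On the soft gel, Scd2 alone among the 10 genes passed the age test, and it fell. Scd2 had 76.3, 30.8 and 87.5 scaled TPM in aged cells on the soft gel, against 319.8, 368 and 264 in neonate cells. The aged mean of 64.9 ± 30.0 was 0.205 of the neonate mean of 317 ± 52.0 (SD, n = 3 each), and the log2 difference of Scd2 was -2.39 (95% interval -3.50 to -1.28, limma adjusted p = 0.0193). Of all genes, 1.56% were called and 0.191% were called lower in aged cells. In limma the Scd2 call was lost without aged replicate 2 (adjusted p = 0.0921) and without neonate replicates 1, 2 or 3 (0.0839, 0.111 and 0.0517), and likewise with no scaling (0.0996) and when these 2 groups alone were fitted (0.0937).

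Acly and Fasn had the same order of groups on the soft gel without passing the test. Acly had 35.2, 31.6 and 75.6 scaled TPM in aged and 175, 148 and 156 in neonate cells (log2 difference -1.84, limma adjusted p = 0.183). Fasn had 26.0, 15.7 and 15.3 in aged and 52.1, 51.7 and 76.5 in neonate cells (log2 difference -1.63, limma adjusted p = 0.223). Both groups of libraries were apart for each gene, at 0.297 of the neonate mean for Acly and 0.316 for Fasn.

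Fads1 had 8.23, 7.03 and 11.3 scaled TPM in aged cells on the soft gel, against 40.1, 30.7 and 35.2 in neonate cells (limma adjusted p = 0.258). Elovl6, which lengthens saturated and monounsaturated chains, had 4.62, 0 and 0 in aged and 43.7, 33.3 and 31.2 in neonate cells (limma adjusted p = 0.103). The pairs behind Elovl6 were 0.860 in aged and 31.6 in neonate cells, a ratio of 0.0293 per depth (exact 95% interval 0.000719 to 0.175, counting error only). Elovl6 was thus detected in every neonate library and in 1 aged library on the soft gel. Scd had 6.93, 3.49 and 6.23 in aged and 11.3, 28.3 and 15.3 in neonate cells. With Scd, 6 of the 10 genes were lower in every aged library on the soft gel, beside 3.68% of all genes.

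Elovl5 and Tecr overlapped between ages on the soft gel. Elovl5 had 74.5, 108 and 102 scaled TPM in aged and 107, 140.1 and 106 in neonate cells, and the 95% interval of its log2 difference ran from -2.26 to 1.63. Tecr had 42.3, 92.9 and 40.2 in aged and 61.3, 97.9 and 88.8 in neonate cells, with an interval from -2.27 to 1.12. Fads2, the desaturase that opens the polyunsaturated pathway, ranged from 7.20 to 27.7 in aged and from 6.77 to 46.3 in neonate cells. Acaca ranged from 5.63 to 23.6 in aged and from 3.31 to 17.2 in neonate cells.

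In primary cells 0 of the 10 genes passed the age test with limma at the adjusted threshold of 0.05, beside 2.6% of all genes. Scd2 and Fasn had an unadjusted p under 0.05, and voom on read-pair equivalents called Fasn. Scd2 had 45.1, 42.8 and 60.2 scaled TPM in aged primary cells, against 106, 95.9 and 134 in neonate primary cells. Fasn had 11.3, 7.87 and 7.68 in aged and 37.0, 21.3 and 26.3 in neonate primary cells. Acly had 25.3, 38.3 and 30.5 in aged and 55.4, 38.6 and 92.2 in neonate primary cells. For each of these 3 genes every aged library was below every neonate one, narrowly so for Acly, which was the case for 4.97% of all genes.

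The log2 difference between aged and neonate primary cells was -1.17 for Scd2 (95% interval -2.28 to -0.05, limma adjusted p = 0.357) and -1.54 for Fasn (-2.91 to -0.16, adjusted p = 0.312). Elovl5 overlapped, with 25.8, 46.1 and 119 scaled TPM in aged and 89.4, 35.1 and 27.4 in neonate primary cells. Tecr overlapped as well, with 23.7 to 75.5 in aged and 20.6 to 76.6 in neonate primary cells. Fads1 had 22.7, 6.32 and 3.07 in aged primary cells, where replicate 1 stood high, and 19.7, 15.7 and 27.9 in neonate primary cells. The other 4 genes overlapped between ages in primary cells. Fads2 had 25.8, 19.3 and 0 in aged and 23.4, 6.53 and 33.3 in neonate primary cells, and Acaca had 11.3, 0 and 6.69 in aged and 8.10, 4.17 and 17.8 in neonate ones. Elovl6 was detected in 1 of 3 aged and 2 of 3 neonate primary libraries, at up to 2.59 in aged and 17.9 in neonate cells. Scd was detected in replicate 1 alone of either age, at 8.40 in aged and 1.26 in neonate primary cells.

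**Figure D2:**
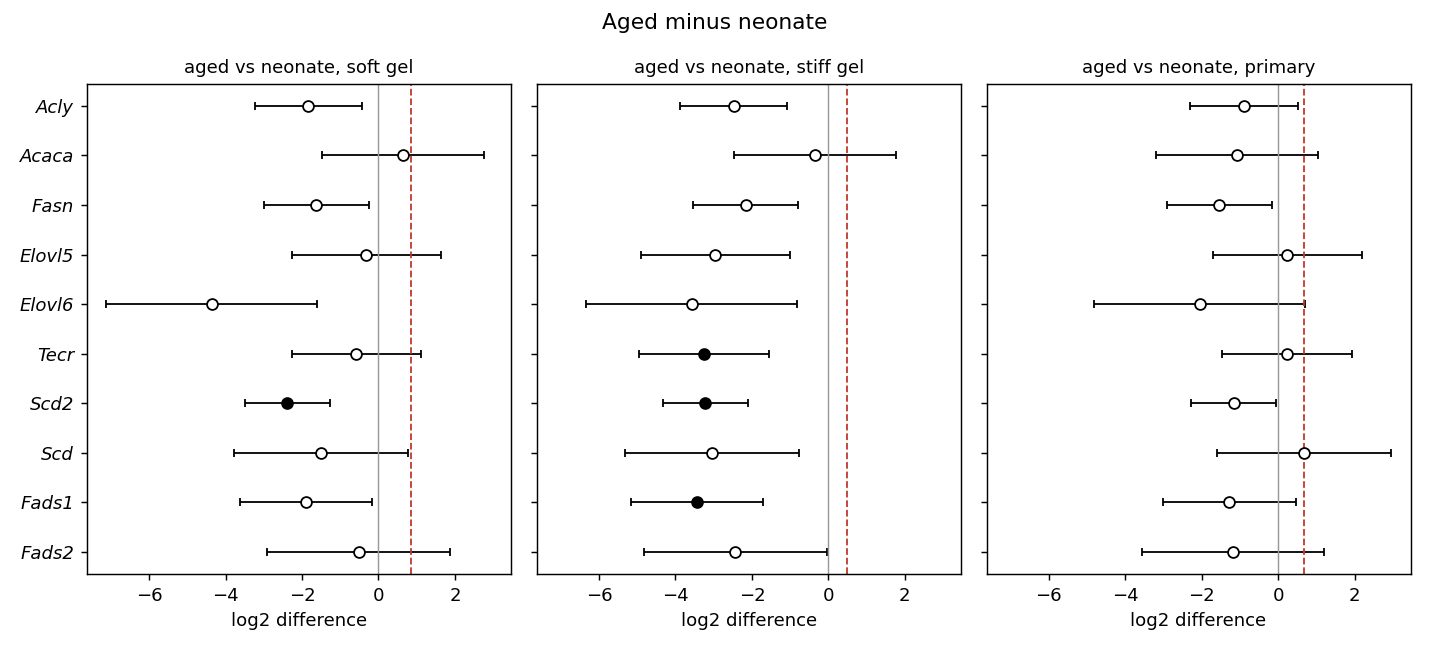
Log2 difference (aged minus neonate, on log2(scaled TPM + 1)) of each gene with its 95% interval from limma, on the soft gel, on the stiff gel and in primary cells. Filled points passed an adjusted p of 0.05, which were Scd2 on both gels and Fads1 and Tecr on the stiff gel, and the dashed line is the median of all 15144 genes.

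The median log2 difference of the 10 genes was -1.57 on the soft gel, -3.00 on the stiff gel and -1.12 in primary cells, beside all-gene medians of 0.86, 0.49 and 0.69. Each of the 10 lay below the all-gene median in all 3 comparisons, but not each was below 0. In primary cells the differences of Scd, Elovl5 and Tecr were positive, at 0.69, 0.24 and 0.23, and Scd lay just under the all-gene median. On the soft gel that of Acaca was 0.63. On both gels each of the 10 lay below the all-gene median in each of 9 other settings. On the soft gel 9 of 10 did without aged replicate 3 or neonate replicate 1. In primary cells 9 of 10 lay below that median with no scaling, no filter, a filter of 5 TPM or voom. It was 8 of 10 in primary cells without the 3 replicate 1 libraries of the aged groups, or without aged primary replicate 1 alone. Leaving out these 3 libraries moved the all-gene medians to 0.43 on the soft gel and 0 on the stiff gel and in primary cells. The medians of the 10 genes were then -1.67, -3.28 and -1.39. Without those 3 libraries Scd2 (limma adjusted p = 0.0211) remained the gene called on the soft gel. On the stiff gel Scd2, Fads1, Fasn and Scd were then called, with adjusted p of 0.00436, 0.0110, 0.0467 and 0.0429, while Tecr was not (0.107).

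OPC markers moved with the same comparisons. In primary cells 5 of the 13 OPC markers fell with age and 0 rose, on the soft gel 3 fell and on the stiff gel 3 fell, each set at an adjusted p under 0.05. The microglia markers that rose numbered 14 of 14 in primary cells, 5 on the soft gel and 4 on the stiff gel. Of all genes, 2.6%, 1.56% and 2.18% were called in these comparisons, in the same order. Divided by the summed OPC markers of the same library, the 10 fatty acid genes came to 0.528 to 0.880 in aged and 0.438 to 0.610 in neonate cells on the soft gel, and to 0.446 to 0.716 in aged and 0.361 to 0.785 in neonate cells on the stiff gel. On both gels the ratio therefore overlapped between ages. In primary cells it was 1.29 to 1.86 in aged and 0.284 to 0.438 in neonate libraries, so that relative to OPC markers the sum was higher, not lower, in aged primary cells. Scd2 alone per OPC markers was 0.0879 to 0.181 in aged and 0.148 to 0.223 in neonate cells on the soft gel, and 0.123 to 0.244 in aged and 0.140 to 0.379 in neonate cells on the stiff gel. In primary cells it was 0.257 to 0.373 in aged and 0.107 to 0.120 in neonate libraries. Oligodendrocyte markers, 12 genes, summed to 321 to 816 scaled TPM in aged and 147 to 472 in neonate cells on the soft gel. On the stiff gel they summed to 146 to 444 in aged and 456 to 891 in neonate cells, so these libraries did not overlap. In primary cells their sums were 216 to 482 in aged and 222 to 347 in neonate libraries. Astrocyte markers, 9 genes, summed to 52.1 to 152 in aged and 199 to 359 in neonate cells on the soft gel. On the stiff gel their sums were 40.1 to 158 and 212 to 353, and in primary cells 122 to 214 and 173 to 217. Endothelial markers, 7 genes, went the other way, with 44.3 to 96.3 in aged and 6.33 to 14.3 in neonate cells on the soft gel. They had 17.7 to 96.0 and 0 to 2.31 on the stiff gel, and 35.4 to 156 and 14.7 to 23.2 in primary cells. Neuron markers overlapped between ages in each comparison. The part of other cell types in the age differences was not tested. The ratios to OPC markers are ratios of bulk sums and cannot separate it from OPC marker RNA per cell.

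**Figure D3:**
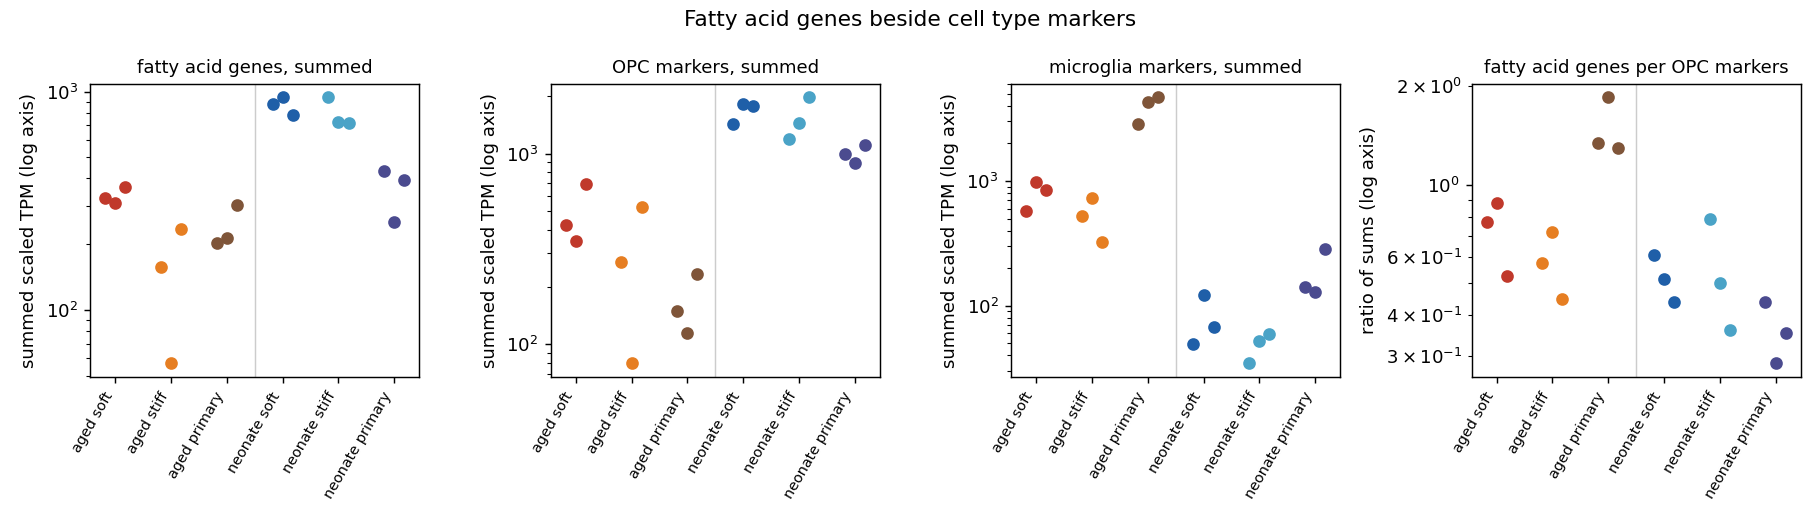
Each point is 1 library: the 10 fatty acid genes summed, 13 OPC markers summed, 14 microglia markers summed (scaled TPM, log axes) and the ratio of the first sum to the OPC sum (log axis). The first 2 sums are lower in aged than in neonate gel libraries, and the ratio overlaps between ages on both gels but is 1.29 to 1.86 in aged and 0.284 to 0.438 in neonate primary cells.

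Between the soft and the stiff gel, aged cells had higher values on the soft gel without any of the 10 genes passing the test, beside 0.0792% of all genes called. Tecr and Elovl5 were furthest apart. Tecr had 42.3, 92.9 and 40.2 scaled TPM in aged cells on the soft gel, against 0, 9.50 and 18.4 on the stiff gel, a log2 difference of 3.23 (95% interval 1.54 to 4.92, limma adjusted p = 0.143). Tecr passed without aged stiff replicate 3 (log2 difference 4.06, adjusted p = 0.0258), and without aged stiff replicate 1, listed at 0, its difference was 1.95 (0.161). Elovl5 had 74.5, 108 and 102 on the soft gel, against 40.7, 0 and 51.6 on the stiff gel (log2 difference 2.87, limma adjusted p = 0.252). Without aged stiff replicate 2, the library at 0, the difference of Elovl5 was 1.02 (adjusted p = 0.678). Scd and Fads1 were the other genes whose aged soft libraries all lay above the aged stiff ones, which makes 4 of 10 beside 6.63% of all genes.

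Scd2 overlapped between the gels in aged cells, and its interval ran from -0.36 to 1.86. The log2 difference was positive for each of the 10 genes, with a median of 1.16 beside an all-gene median of 0.59. The differences of 7 of the 10 exceeded the all-gene median with a pseudocount of 0.1 or without the 3 replicate 1 libraries, and those of 9 with no scaling or quantile normalization. Quantile normalization and leaving out those 3 libraries each left 9 of 10 above 0. Without aged stiff replicate 1 or without aged stiff replicate 2, 6 of the 10 exceeded the all-gene median. OPC markers summed to 350.3 to 692 on the soft and 79.4 to 523 on the stiff gel in aged cells, and aged stiff replicate 2 had the lowest OPC sum, the lowest summed level of the 10 genes, 56.8 scaled TPM, and the fewest pairs on them, 10.5. Their part in the difference was not tested.

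In neonate cells none of the 10 genes passed limma's test between the gels, and neither did any other gene, 0% of 15144, although 438 had an unadjusted p under 0.05 and voom called 6. Scd2 had 319.8, 368 and 264 scaled TPM on the soft gel, against 454, 290.3 and 278 on the stiff gel, and the 95% interval of its log2 difference ran from -1.19 to 1.03. Acly was the gene whose libraries did not overlap, with 175, 148 and 156 on the soft gel and 108, 100.4 and 129 on the stiff gel (log2 difference 0.51, 95% interval -0.90 to 1.91). Such a gap in the same direction was found for 3.8% of all genes. For the difference between ages in the effect of stiffness 0 of the 10 genes passed, beside 0.0066% of all genes, and Tecr came nearest with 2.68 (95% interval 0.29 to 5.07, limma adjusted p = 0.927).

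Culture on the gels went with higher stearoyl-CoA desaturase levels in neonate cells, again without passing limma's test. Scd2 had 264 to 454 scaled TPM in the 6 neonate gel libraries, against 95.9 to 134 in the 3 neonate primary ones, a ratio of means of 2.94. Scd had 6.73 to 28.3 in the neonate gel libraries, against 1.26, 0 and 0 in neonate primary cells. The pairs behind Scd were 43.1 on gels and 0.980 in primary cells, a ratio of 28.0 per depth (exact 95% interval 4.76 to 1131, counting error only). The log2 differences were 1.54 for Scd2 (95% interval 0.57 to 2.499, limma adjusted p = 0.41) and 3.57 for Scd (1.60 to 5.54, adjusted p = 0.231). Of all genes 0.099% were called, and voom on read-pair equivalents called both Scd2 and Scd, with adjusted p of 6.36e-05 and 0.00029. With no scaling the log2 difference of Scd2 was smaller, at 0.40.

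In scaled TPM, Acly was the other gene with every neonate gel library above every primary one. It had 100.4 to 175 on gels and 38.6 to 92.2 in primary cells. Such a gap was found for these 3 of the 10 genes and for 1.22% of all genes. Without scaling, Acly had 45.6 to 219 TPM on gels and 67.2 to 150 in primary cells, an overlap. Scd2 then overlapped as well, at 132 to 399 and 167 to 218, whereas Scd did not. The median log2 difference of the 10 genes was 1.09 as fitted and -0.04 with no scaling. Ribosomal RNA genes took 49.5% to 62.2% of the TPM in neonate gel libraries and 24.3% to 35.6% in neonate primary ones. Their part in this shift was not tested. Fasn had 36.4 to 76.5 scaled TPM on gels and 21.3 to 37.0 in neonate primary cells, a slight overlap, with a log2 difference of 0.99 (95% interval -0.20 to 2.18). In neonate cells OPC markers summed to 1198 to 1983 on gels and 892 to 1111 in primary cells, and the 10 genes per OPC markers came to 0.361 to 0.785 on gels and 0.284 to 0.438 in primary cells. The ranges of that ratio overlapped. Scd2 alone per OPC markers was 0.140 to 0.379 on gels and 0.107 to 0.120 in neonate primary cells, which did not overlap. The part of cell makeup was not tested.

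In aged cells none of the 10 genes was called between gels and primary cells, beside 1.11% of all genes, and the libraries overlapped for each of them, while 0.812% of all genes lay higher and 2.93% lower in every gel library. Scd2 had 19.3 to 87.5 scaled TPM on gels and 42.8 to 60.2 in aged primary cells, with a log2 difference of -0.10 (95% interval -1.06 to 0.86). The difference between ages in the effect of culture was -1.64 for Scd2 (95% interval -3.00 to -0.28, limma adjusted p = 0.733), so it was not called, and 0 of the 10 genes were, beside 0.112% of all genes. Microglia markers summed to 322 to 984 on gels and 2866 to 4718 in aged primary cells, and their part in the comparison was not tested.

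**Figure D4:**
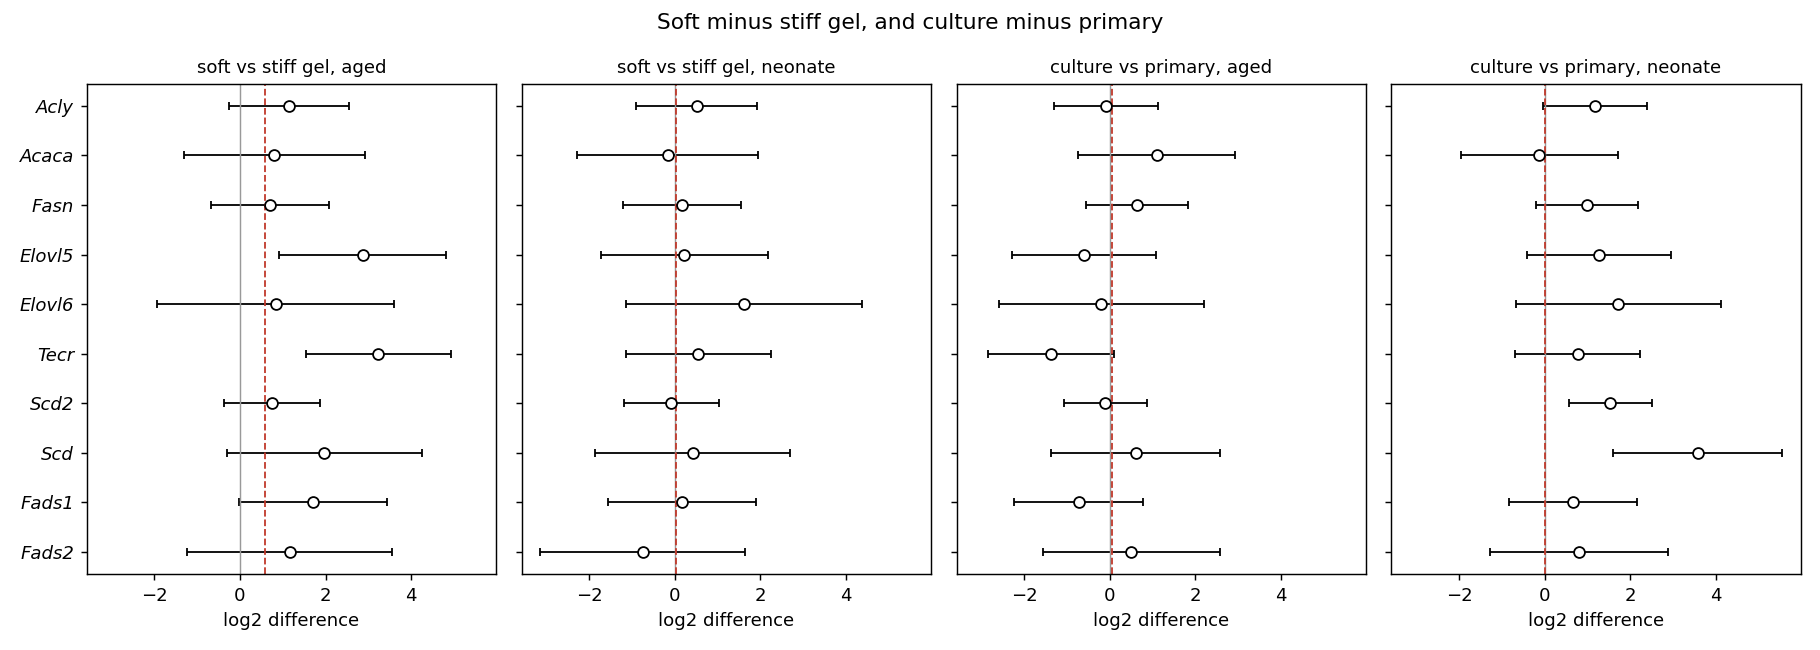
Log2 difference of each gene with its 95% interval from limma, for soft minus stiff gel and culture (mean of both gels) minus primary, in aged and in neonate cells. No point passed an adjusted p of 0.05, and the dashed line is the median of all 15144 genes.

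The order of the group means of Scd2 was neonate stiff, neonate soft, neonate primary, aged soft, aged primary and aged stiff. Neonate stiff and neonate soft overlapped, as did the 3 aged groups, while the neonate primary libraries lay between both sets. The share of the 10-gene sum held by Scd2 was 9.98% to 34.0% in the 9 aged libraries and 24.3% to 48.2% in the 9 neonate ones. Scd made up 0% to 14.2% of the read pairs of Scd and Scd2 together in aged libraries, 2.01% to 6.40% in neonate gel libraries and 0% to 1.05% in neonate primary ones. By read pairs, Scd2 thus exceeded Scd in all 18 libraries.

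Across the 18 libraries the levels of Scd2 and Acly had a Pearson r of 0.902 on log2(scaled TPM + 1), Scd2 and Fasn of 0.891 and Scd2 and Fads1 of 0.842. These values are descriptions, since the libraries share group differences and depth. The genes most like Scd2 were Marcksl1 (r = 0.908), Bcan (0.897), Sox10 (0.895) and Slc25a4 (0.877), of which Bcan and Sox10 are on the OPC marker list. Those most like Acly were Ckb, Pcbp4, Prdx2 and Tdg, with r of 0.911 to 0.885. Those most like Elovl5 were Tmx2, Rpl35, Ywhae and Atp6v0c, with r of 0.975 to 0.910, which were other genes than those of Scd2. Acaca had an r of at most 0.346 with any of the other 9 genes.

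Of 131 further lipid genes in the files, 129 were tested. In primary cells 1 rose and 1 fell with age, or 1.55% beside 2.6% of all genes. On the stiff gel 1 rose and 2 fell, or 2.33% beside 2.18% of all genes. Both shares are near those of all genes, and 0 were called in the other 7 comparisons. Mlxipl, the ChREBP factor that drives lipogenic genes, had 26.0, 67.5 and 72.8 scaled TPM in aged primary cells and was listed at 0 in all 3 neonate primary libraries (limma adjusted p = 0.0104, and 0.0517 without aged replicate 3). Dbi, the acyl-CoA binding protein, had 6.28, 0 and 0 in aged and 63.1, 55.8 and 62.8 in neonate primary cells (limma adjusted p = 0.0438). Only the fit without aged replicate 1 kept the Dbi call among the 6 that left out a library, and the others gave 0.123 to 0.162. Of 9 other settings, Mlxipl was called in 8 and Dbi in 6.

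Lpl, lipoprotein lipase, had 106, 139 and 29.3 scaled TPM in aged cells on the stiff gel, against 6.92, 0 and 0 in neonate cells (limma adjusted p = 0.0318). Agpat1, an acyltransferase of glycerolipid synthesis, had 24.2, 6.77 and 62.7 in aged and 125, 157 and 90.5 in neonate cells (limma adjusted p = 0.0433). Usf1, a factor of the E-box family, had 1.47, 0 and 0 in aged and 30.6, 20.6 and 6.43 in neonate cells (limma adjusted p = 0.0425). Leaving out 1 library ended the call of Lpl for 4 of 6 libraries, of Usf1 for 4 and of Agpat1 for 5, with adjusted p of up to 0.163, 0.204 and 0.26. Of 9 other settings, Lpl was called in 6, Usf1 in 5 and Agpat1 in 4.

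Of the other genes named by rule, Srebf1, Srebf2, Insig1, Acacb and Fads3 did not pass the test in any comparison. Srebf1, the SREBP-1 gene, had 10.7 to 45.7 scaled TPM in the 9 aged and 12.96 to 39.97 in the 9 neonate libraries. Srebf2, the SREBP-2 gene, had 2.30 to 46.5 in aged and 14.6 to 42.7 in neonate libraries. Insig1, a SREBP target that holds the factor back, had 73.2 to 144 in neonate gel libraries and 20.9 to 47.4 in neonate primary ones, so these libraries did not overlap (log2 difference 1.60, limma adjusted p = 0.504). Acacb, the acetyl-CoA carboxylase tied to fatty acid oxidation, was listed at 0 in 8 of the 9 neonate libraries and had 0 to 10.6 in the aged ones. Fads3, the neighbour family member of Fads1 and Fads2, had 0 to 21.5 in aged and 0.347 to 53.9 in neonate libraries.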

How the data were processed

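Total RNA of 18 rat OPC libraries, made with a stranded kit for picogram inputs, was sequenced in pairs of 150 bases per the labels' protocols. The submitters' processing notes name Trimmomatic, HISAT2, StringTie and Bowtie, and per the file headers StringTie 1.3.2d quantified annotated transcripts, so the deposited values are TPM, FPKM and coverage beside other attributes per transcript. Whether strand was used in alignment is not given in the sources used here.

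TPM was summed per gene and scaled by median-of-ratios factors, which rest on the 1644 genes present in every library. Of all genes, 15144 reached 1 TPM in 3 or more libraries and were fitted as log2(scaled TPM + 1) with 6 group means in limma 3.58.1 (R 4.3.3, variance trend), with p adjusted by Benjamini and Hochberg over all of them and a threshold of 0.05. A fold on this scale understates the change of low genes. Culture comparisons used the mean of both gels. Read-pair equivalents are coverage times transcript length over 300 bases. Ratios of pairs per depth with an interval used pairs rounded to whole numbers, divided by the pairs per scaled TPM of each group. The fit was tested on simulated data with large changes planted in genes above a minimum of read pairs. That run does not bear on smaller changes or on genes with few pairs.

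The rule for named genes took the 10 genes, up to 6 called genes of the pathway lists per comparison, by size, then Srebf1, Srebf2, Insig1, Acacb and Fads3, and the 4 genes of highest Pearson r for each of the 3 genes of highest mean. Protein sequences were not used here. The 10 genes and the lists were chosen with earlier results of these data known. Replicate numbers were not taken to pair libraries. The other settings tried were no filter, a pseudocount of 0.1, a filter of 5 TPM, no scaling, quantile normalization, only the groups compared, voom on read-pair equivalents, a replicate block, the 3 broad libraries (replicate 1 of each aged group) left out, and each library left out.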

Additional observations from a re-analysis of the deposited data

How the results depend on the processing

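The 29 log2 differences followed across the alternatives were those of the 10 genes with an unadjusted p under 0.05 and of called further lipid genes. None changed sign, but they were picked for lying far from 0. Among all 10 genes signs did change. In neonate culture 9 differences were positive as fitted and 5 with no scaling, and in aged culture 4 as fitted and 7 with voom. The number of the 10 fatty acid genes called was 1 on the soft gel and 3 on the stiff gel. On the soft gel it became 0 with no scaling, 2 with quantile normalization, 0 when only the groups compared were fitted, 4 with voom, and 0 to 1 with 1 library left out. On the stiff gel it became 1 with a pseudocount of 0.1, 0 with no scaling, 0 with only the groups compared, and 1 to 5 with 1 library left out, the highest without aged replicate 3. In primary cells voom called 1, between gels in aged cells leaving out 1 library gave 0 to 1, and in neonate culture voom called 2. The cause of these shifts was not tested, except that fitting only the groups compared leaves fewer libraries to estimate the spread.

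The counts over all genes moved as follows. With a pseudocount of 0.1 they were 160 in primary cells, against 394 in the design as fitted, 117 against 236 on the soft gel, 76 against 168 for aged culture and 8 against 17 for the interaction of culture and age. With only the groups compared they were 175 in primary cells, 59 on the soft gel, 21 on the stiff gel against 330, 0 between gels in aged cells against 12, 62 for aged culture, 37 for neonate culture against 15 and 0 for the interaction of stiffness and age against 1. Voom gave 977 in primary cells, 940 on the soft gel, 6 between gels in aged cells and 6 in neonate cells (against 0), 436 for aged culture, 71 for neonate culture, 85 for culture by age and 0 for stiffness by age. Without the 3 broad libraries they were 434 on the soft gel, 117 between gels in aged cells, 26 for culture by age and 6 for stiffness by age. Between gels in aged cells the filter of 5 TPM gave 6, no scaling 1 and quantile normalization 20, no scaling gave 47 for neonate culture, and for stiffness by age no filter, no scaling and quantile normalization gave 0 each.

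Leaving out 1 library gave 166 to 346 calls in primary cells, 105 to 204 on the soft gel, 185 to 694 on the stiff gel, 3 to 69 and 0 to 1 between gels in aged and in neonate cells, 43 to 231 and 3 to 18 for aged and neonate culture, and 2 to 26 and 0 to 6 for the interactions of culture and of stiffness with age. Of the calls, 207 of 236 on the soft gel were higher in aged cells, against 186 of 289 with quantile normalization. On the stiff gel it was 171 of 330, against 172 of 222 with no scaling, 110 of 267 with quantile normalization and 187 of 472 without the broad libraries. In primary cells it was 294 of 394, against 241 of 395 with no scaling and 234 of 455 with quantile normalization. No scaling moved the median log2 difference of all genes to -0.47 in neonate culture, against 0, and to 0.74 on the stiff gel, against 0.49.

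Same-numbered libraries of different groups had deviations with correlations of -0.09 to 0.23, with a mean of 0.02, so the numbers were not taken as pairs. In 12 of the 18 libraries the number inside the file is another than that of the title, which the check used. With a replicate block 4 of the 10 genes were called on the stiff gel, adding Acly (limma adjusted p = 0.0377), and the other counts over the 10 genes were as without it.

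Depth limits the low genes most: Scd and Elovl6 rest on 58.4 and 60.2 read pairs over all 18 libraries, against 1457 for Scd2.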
